A study of Mus musculus with 11 samples.

Results

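The genes described here are 10 cartilage matrix and chondrocyte genes other than collagens, namely Acan, Hapln1, Matn1, Matn3, Cnmd, Chad, Sox9, Comp, Cytl1 and Ucma. They were taken by symbol from the 21899 genes of the expression file, each through its mouse Ensembl identifier, and all 10 were present and passed the minimum mean of 0.5 FPKM. FPKM is the number of sequenced fragments of a gene divided by its exon length and by the total of fragments of the library. No exon of another gene overlapped an exon of these 10 genes in GENCODE M21.

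RNA-seq was performed on airway tissue of wild type BALB/c male mice aged 6 to 8 weeks, in a model of asthma that was made worse by bacterial lipopolysaccharide (LPS). The 3 PBS libraries came from mice that were not sensitized and received sterile PBS only. The 4 OVA/LPS/Vehicle libraries, numbered 12, 34, 56 and 78, came from mice given ovalbumin (OVA) with alum on days 0 and 7, OVA through the nose on days 14 to 17, LPS through the nose on days 19 and 21, and then vehicle. The 4 OVA/LPS/GGsTop libraries came from mice given the same OVA and LPS, followed by 0.5 mg/kg of GGsTop, an inhibitor of γ-glutamyl transpeptidase, into the trachea on days 21, 22 and 23. Tissue was taken on day 25 in each group. The PBS group thus differed from both others in sensitization and in challenge. Whether PBS mice were given any liquid into the trachea is not stated. The labels call the tissue trachea, whereas the methods of the study describe large airways freed from lung by blunt dissection with the trachea removed. It is not stated whether a vehicle library with a number such as 12 is a pool of animals. Nothing in the labels ties a library to a separate animal, so p-values measure the spread between these libraries.

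Cartilage rings and plates hold the large airways open, and in the mouse they line the trachea and the main bronchi outside the lung but not the airways within it. Chondrocytes lie in a matrix of type II collagen fibrils and of aggrecan, a proteoglycan whose chondroitin sulfate chains bind water, with link protein tying aggrecan to hyaluronan. SOX9 is the transcription factor that starts and maintains the chondrocyte program and drives the genes of this matrix.

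Depth was similar across libraries, at 14513136 to 18632382 fragments as recovered from the FPKM steps. The share of mitochondrial genes in the FPKM total was 14.5% to 19.5% in the vehicle libraries, above the 2.08% to 10.1% in PBS and the 7.40% to 11.1% with GGsTop. Its part in the differences of FPKM that follow was not tested directly. With libraries rescaled to the same total over nuclear genes, 0 of the 10 genes were called, and 20 of the 21 calls given below for the cartilage and tendon lists held, all but that of Trps1. Against the labelled tissue, the chondrocyte markers fixed for the check (Acan, Matn1, Sox9, Col2a1, Col9a1 and Col11a2) were present in 8 libraries, whereas in the other 3 Acan, Matn1, Col9a1 and Col2a1 were at or near 0 and Sox9 and Col11a2 were left. In PBS 3, OVA/LPS/GGsTop 1 and OVA/LPS/GGsTop 3 no fragment of Acan, Matn1, Ucma or Col9a1 was counted. These 3 libraries were not shallower than the rest, with 15057817 to 18632382 fragments against 14513136 to 16710799 in the other 8. They came from 2 of the 3 groups and stood apart from the other libraries of their own group. They were singled out by their Acan level, after it was seen, and the comparisons below are given with and without them. In bulk tissue, fewer chondrocytes in a sample and less RNA per chondrocyte cannot be told apart. In these 3 libraries Cytl1 kept 868 fragments or more and Chad 412 or more, and which cells gave them was not tested.

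**Figure D1:**
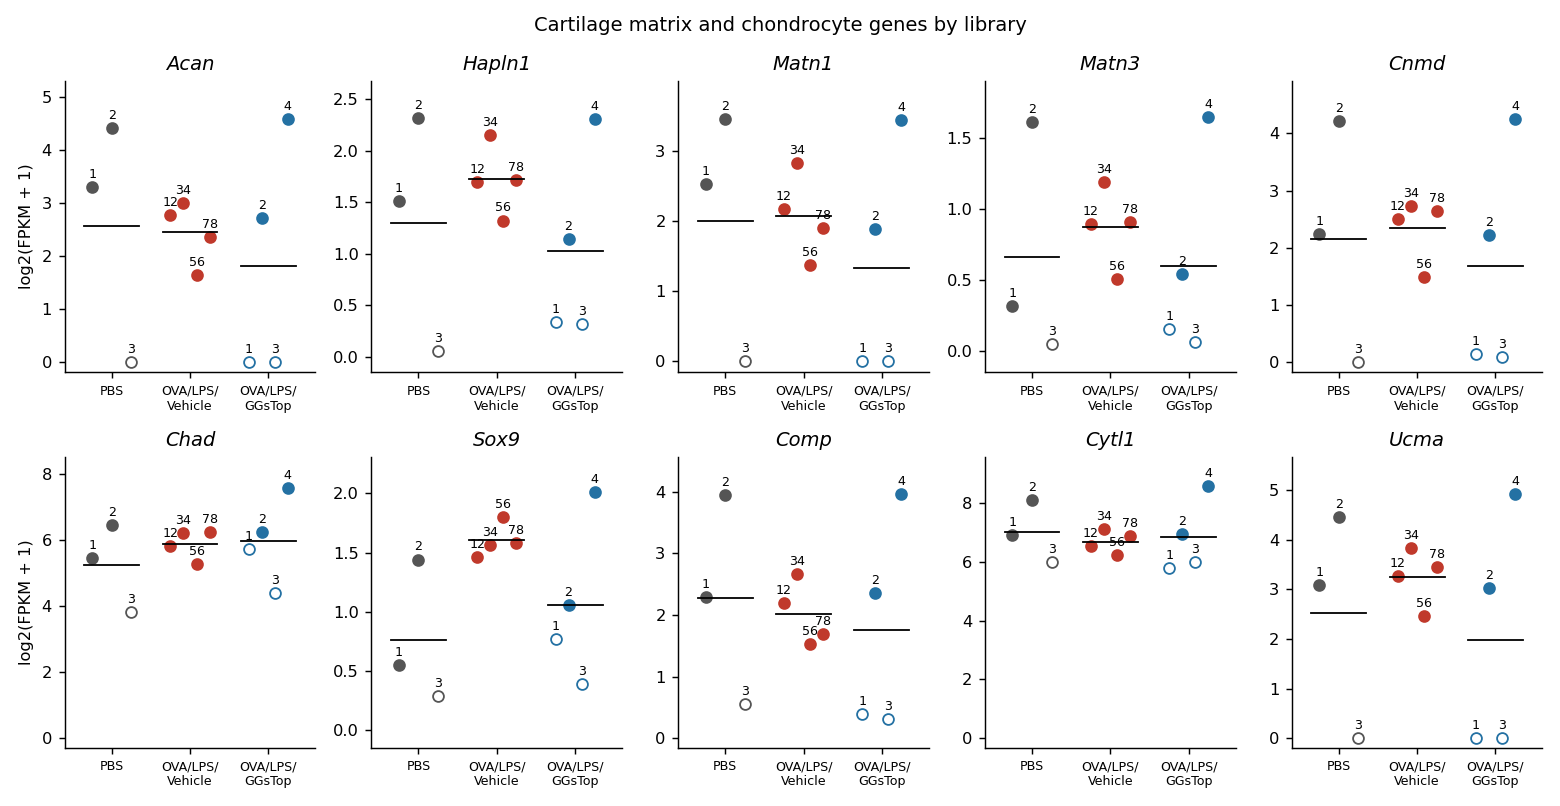
Level of each of the 10 genes in every library, as log2(FPKM + 1) on the vertical axis, by group on the horizontal axis. A point is 1 library with its number, a line is the group mean, and open points are PBS 3, OVA/LPS/GGsTop 1 and OVA/LPS/GGsTop 3. For 8 of the 10 genes the open points are the 3 lowest, and the vehicle libraries lie within the range of the GGsTop libraries for all 10.

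Genes of the aggrecan network varied widely within groups. Acan encodes aggrecan (ENSMUSG00000030607, chr7:79053483-79115099 of GRCm38, plus strand). Its level was 8.84, 20.4 and 0 FPKM in PBS 1 to 3, 5.87, 7.06, 2.13 and 4.14 FPKM in the 4 vehicle libraries, and 0, 5.55, 0 and 23.04 FPKM in OVA/LPS/GGsTop 1 to 4. The highest PBS and GGsTop libraries lay above every vehicle library, and the lowest lay below every one. A count of 0 fragments, with an upper limit of 3 fragments per library, allows at most 0.0216 to 0.0267 FPKM of Acan in the 3 libraries. Limits of this kind cover counting error only. The spread was at least 945-fold among PBS libraries and at least 864-fold among GGsTop libraries, against 3.31-fold among vehicle libraries. Matn1 encodes matrilin-1, an adaptor that links collagen fibrils with aggrecan (ENSMUSG00000040533, chr4:130944385-130955475, plus strand). Its level was 4.78, 9.99 and 0 FPKM in PBS, 3.51, 6.10, 1.60 and 2.75 FPKM with vehicle, and 0, 2.69, 0 and 9.83 FPKM with GGsTop. Counts of 0 fragments stood in the same 3 libraries as for Acan, with limits of 0.0805 to 0.0996 FPKM.

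Hapln1 encodes the link protein (ENSMUSG00000021613, chr13:89539796-89611652, plus strand). It was not lost altogether in any library, with 1.84, 3.99 and 0.0364 FPKM in PBS, 2.23, 3.45, 1.499 and 2.28 FPKM with vehicle, and 0.259, 1.20, 0.247 and 3.94 FPKM with GGsTop. The lowest value, in PBS 3, rests on 4 fragments, and the 2 low GGsTop libraries hold 23 fragments each. Matn3, matrilin-3 (ENSMUSG00000020583, chr12:8947929-8972028, plus strand), had the lowest mean level of the 10 genes, with 0.242, 2.05 and 0.0356 FPKM in PBS, 0.856, 1.28, 0.416 and 0.874 FPKM with vehicle, and 0.110, 0.457, 0.0421 and 2.13 FPKM with GGsTop. PBS 1 held more Acan than each vehicle library but was the fourth lowest library for Matn3.

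The sequences before the RefSeq start of Acan, Matn1 and Ucma, which had no fragments in the 3 libraries, are shown. Those of Hapln1 and of Cytl1, which kept fragments in every library, are shown with them. RefSeq promoters of GRCm38.p6 were matched for 8 of the 10 genes, not for Sox9 and Comp. Each is the 250 bases before the RefSeq start, 5′ to 3′ on the strand of the gene, at chr7:79052976-79053225 for Acan, chr13:89540386-89540635 for Hapln1, chr4:130944135-130944384 for Matn1, chr2:4975872-4976121 for Ucma and chr5:37735269-37735518 for Cytl1, all on the plus strand. Capitals mark the core of the SOX motif, ACAAT or its reverse complement ATTGT, searched on both strands. The core stood in 1 of the 8 promoters, that of Hapln1 at position -249, and in 27.7% of the 32851 promoters of the table over the same length. RefSeq and GENCODE M21 place the starts of Hapln1 and Acan differently. The Hapln1 stretch, with its match, lies inside the gene as GENCODE M21 places it, from 89539796. The Acan stretch ends at 79053225, some way before the GENCODE M21 start at 79053483. A match describes letters and not binding.
Acan: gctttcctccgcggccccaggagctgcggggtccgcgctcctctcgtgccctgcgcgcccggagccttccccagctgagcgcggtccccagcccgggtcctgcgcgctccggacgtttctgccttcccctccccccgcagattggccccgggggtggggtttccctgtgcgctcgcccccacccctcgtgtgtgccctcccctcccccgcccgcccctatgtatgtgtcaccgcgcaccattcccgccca
Hapln1: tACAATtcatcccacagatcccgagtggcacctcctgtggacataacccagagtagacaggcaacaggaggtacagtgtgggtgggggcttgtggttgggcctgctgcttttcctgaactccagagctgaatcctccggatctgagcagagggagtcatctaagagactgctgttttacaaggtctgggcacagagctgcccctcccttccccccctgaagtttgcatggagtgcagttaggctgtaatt
Matn1: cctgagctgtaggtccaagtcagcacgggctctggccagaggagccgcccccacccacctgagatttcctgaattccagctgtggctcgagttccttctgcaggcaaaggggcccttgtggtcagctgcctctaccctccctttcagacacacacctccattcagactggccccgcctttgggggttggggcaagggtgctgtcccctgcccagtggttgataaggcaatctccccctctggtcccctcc
Ucma: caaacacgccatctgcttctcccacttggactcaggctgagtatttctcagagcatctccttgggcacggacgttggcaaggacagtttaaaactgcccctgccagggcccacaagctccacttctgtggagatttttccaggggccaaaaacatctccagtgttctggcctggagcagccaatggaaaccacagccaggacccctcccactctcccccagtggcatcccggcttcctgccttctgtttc
Cytl1: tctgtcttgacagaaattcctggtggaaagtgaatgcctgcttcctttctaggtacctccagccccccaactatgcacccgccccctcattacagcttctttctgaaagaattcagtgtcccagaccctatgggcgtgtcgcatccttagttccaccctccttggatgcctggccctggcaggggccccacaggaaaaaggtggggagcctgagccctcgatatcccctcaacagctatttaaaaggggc

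Comp and Chad encode matrix proteins that bind the collagen fibril. Comp, cartilage oligomeric matrix protein (ENSMUSG00000031849, chr8:70373558-70382066, plus strand), is known from tendon as well as cartilage. It stood at 3.92, 14.5 and 0.470 FPKM in PBS, 3.57, 5.35, 1.88 and 2.22 FPKM with vehicle, and 0.313, 4.13, 0.235 and 14.7 FPKM with GGsTop. It followed Acan in order at both ends, but fragments were left in all libraries, 11 in the lowest. Chad, chondroadherin (ENSMUSG00000039084, chr11:94565047-94569127, plus strand), is a leucine-rich repeat protein that binds type II collagen and integrins. Its level was 42.8, 87.4 and 13.2 FPKM in PBS, 56.2, 73.4, 38.2 and 75.1 FPKM with vehicle, and 52.1, 75.6, 20.3 and 189.5 FPKM with GGsTop. OVA/LPS/GGsTop 1, which had no Acan fragment, lay in the middle of the range for Chad, above PBS 1 and vehicle 56. The spread of Chad was 9.35-fold among GGsTop libraries, 6.64-fold among PBS libraries and 1.97-fold among vehicle libraries.

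Cnmd, Ucma and Cytl1 encode chondrocyte proteins that are secreted or shed. Cnmd, chondromodulin (ENSMUSG00000022025, chr14:79637690-79662170, minus strand), keeps vessels out of cartilage. It stood at 3.71, 17.6 and 0 FPKM in PBS, 4.66, 5.66, 1.80 and 5.26 FPKM with vehicle, and 0.108, 3.70, 0.0688 and 18.1 FPKM with GGsTop. Ucma encodes a small secreted protein rich in γ-carboxyglutamate (ENSMUSG00000026668, chr2:4976122-4985748, plus strand). Its level was 7.51, 20.9 and 0 FPKM in PBS, 8.61, 13.2, 4.54 and 9.88 FPKM with vehicle, and 0, 7.17, 0 and 29.1 FPKM with GGsTop, and its limits for 0 fragments were 0.182 to 0.225 FPKM. Both genes had their lowest 3 and highest 2 libraries in common with Acan. Cytl1, cytokine-like 1 (ENSMUSG00000062329, chr5:37735519-37739820, plus strand), had the highest level of the 10 genes in every library. It stood at 121, 279 and 63.3 FPKM in PBS, 92.7, 138, 75.5 and 117 FPKM with vehicle, and 54.6, 125, 63.5 and 382 FPKM with GGsTop. Its lowest 3 libraries were also PBS 3 and OVA/LPS/GGsTop 1 and 3, but they kept 868 fragments or more, and its spread among GGsTop libraries was 7.003-fold.

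Sox9 (ENSMUSG00000000567, chr11:112782224-112787760, plus strand) is made by several airway epithelial cells besides chondrocytes. Its level was 0.466, 1.72 and 0.221 FPKM in PBS, 1.76, 1.96, 2.49 and 1.997 FPKM with vehicle, and 0.707, 1.08, 0.307 and 3.04 FPKM with GGsTop. Each vehicle library lay above each PBS library, the nearest pair being 1.76 and 1.72 FPKM. Sox9 was the 1 gene of the 10 whose vehicle libraries did not lie within the range of the PBS libraries. Its highest vehicle library was number 56, which was the lowest vehicle library for the other 9 genes.

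Over the 10 genes, the same libraries stood at the ends. PBS 3, OVA/LPS/GGsTop 1 and OVA/LPS/GGsTop 3 were the lowest 3 libraries for 8 genes, all but Chad and Sox9, and PBS 2 and OVA/LPS/GGsTop 4 the highest 2 for 9 genes, all but Sox9. The SD of log2(FPKM + 1) within groups was 0.53 for Sox9 to 1.90 for Ucma, with a median of 1.24 over the 10 genes, against a median of 0.20 over all genes with a value. Each of the 10 SDs was above that of at least 95.6% of those genes. The summed level of the 10 genes was 243 ± 195 FPKM in PBS (SD, n = 3), 197 ± 54.2 FPKM with vehicle (SD, n = 4) and 274 ± 275 FPKM with GGsTop (SD, n = 4), so that the group means differed by less than the SD of the PBS and of the GGsTop group. Cytl1 and Chad made up most of this sum. They gave 80.1% to 88.5% of it in 8 libraries and 98.6% to 99.0% in PBS 3 and OVA/LPS/GGsTop 1 and 3. The other 8 genes summed to 0.763 to 1.497 FPKM in those 3 libraries and to 16.4 to 104 FPKM in the other 8.

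**Figure D2:**
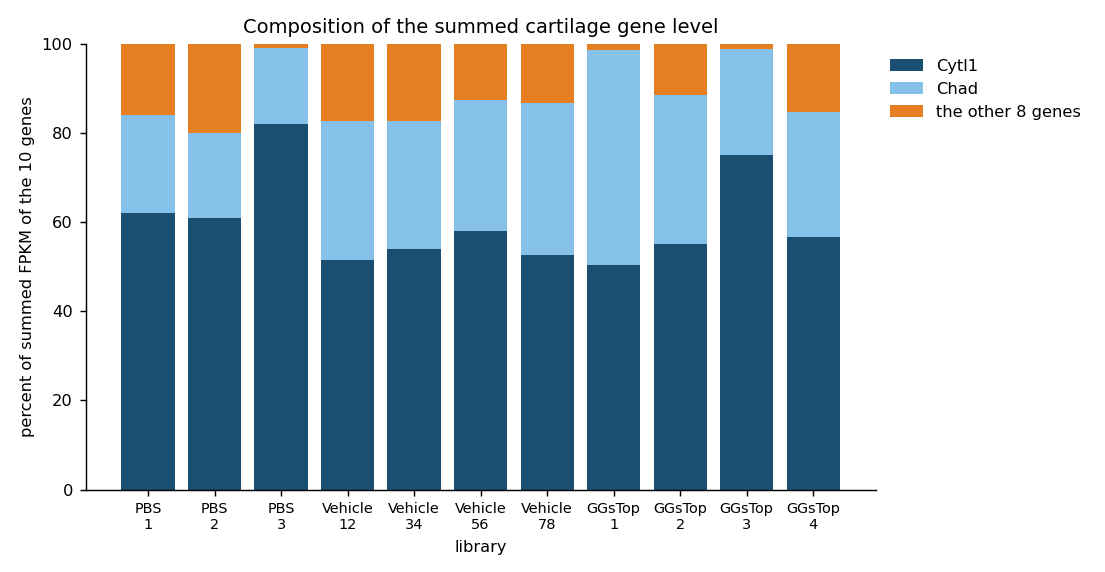
Share of Cytl1, of Chad and of the other 8 genes in the summed FPKM of the 10 genes, in percent on the vertical axis, for each library on the horizontal axis. Vehicle and GGsTop stand for OVA/LPS/Vehicle and OVA/LPS/GGsTop. The other 8 genes nearly vanish from the bars of PBS 3, GGsTop 1 and GGsTop 3, where Cytl1 and Chad hold 98.6% to 99.0%.

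The balance between members also varied among the 8 libraries that held Acan. Per 100 FPKM of Cytl1 there were 7.30 and 7.31 FPKM of Acan in PBS 1 and PBS 2, 6.34, 5.11, 2.83 and 3.55 FPKM in the vehicle libraries, and 4.45 and 6.03 FPKM in OVA/LPS/GGsTop 2 and 4. The log2 ratio of Ucma to Acan, each as FPKM + 1, was -0.21 and 0.03 in PBS 1 and PBS 2, 0.48, 0.82, 0.82 and 1.08 with vehicle, and 0.32 and 0.33 in OVA/LPS/GGsTop 2 and 4. Ucma thus stood higher relative to Acan in each vehicle library than in the others. These ratios were singled out after their values were seen and are given without a test.

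OVA/LPS/Vehicle was compared with PBS to ask what the disease model did to these genes. With limma on log2(FPKM + 1) over all 11 libraries and adjustment over 14004 genes, 0 of the 10 genes passed an adjusted p of 0.05, where 38.0% of all genes did (22.1% lower and 15.9% higher). At an unadjusted p under 0.05 there was 1 of the 10, Sox9, and limma voom on recovered fragments called the same gene. How large a share of all genes lay under that unadjusted p is not given, so nothing is read from this count. The median difference of the 10 genes was 0.20 on the log2 scale (FPKM + 1), against -0.01 over all genes tested. Sox9 differed by 0.84 ± 0.35 (SE; 95% interval 0.08 to 1.61; limma adjusted p = 0.0754), with 4 of 4 vehicle libraries above 3 of 3 PBS libraries. Groups that did not overlap in this direction were found for 18.7% of all genes, and in either direction for 44.1%. The call for Sox9 turned with the setting. It passed without PBS 2 (limma adjusted p = 0.0177), in a fit of these 2 groups only (0.0364), with array weights (0.00256) and with voom (0.0494). Over all its alternatives the difference ran from 0.61 to 1.89 and the adjusted p from 0.00256 to 0.282, the highest without PBS 3. The alternatives include a pseudocount of 0.1 and voom, whose scales are not log2(FPKM + 1), so the sizes in this range are not all comparable.

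For the other 9 genes the intervals were wide and held 0. The largest of these differences in size was that of Ucma, 0.74 (95% interval -1.94 to 3.41), and Acan differed by -0.12 (95% interval -2.69 to 2.45). Among negative differences the smallest p was that of Cytl1, at -0.32 (95% interval -1.69 to 1.05). A change of 3-fold in either direction lies within the intervals of Ucma and Acan, so the data do not show that these genes were alike in the 2 groups. Without PBS 3, OVA/LPS/GGsTop 1 and OVA/LPS/GGsTop 3, 9 of the 10 differences were negative and the median was -0.67. PBS 3 was left out for its low Acan, so a lower difference follows from the choice. Acan then differed by -1.41, Comp by -1.11 and Sox9 by 0.61, and 0 of the 10 passed the test (lowest adjusted p = 0.110, limma). The sign of 6 genes turned with the 3 libraries, for Ucma from 0.74 to -0.52.

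OVA/LPS/GGsTop was compared with OVA/LPS/Vehicle to ask what GGsTop changed in the diseased airway. With limma 0 of the 10 genes passed, where 8.71% of all genes did (1.81% lower and 6.90% higher), and 0 had an unadjusted p under 0.05 or were called by voom. Rescaling all libraries to the same median turned the counts over all genes from 254 lower and 966 higher to 354 lower and 344 higher. The median difference of the 10 genes was -0.59, against 0.03 over all genes tested, and 8 of the 10 were negative. The sign depended on the log scale for Acan, Cnmd, Comp and Ucma, whose mean FPKM was higher with GGsTop than with vehicle, for Acan 7.15 against 4.80 and for Comp 4.84 against 3.25. Ucma differed by -1.27 (95% interval -3.74 to 1.21), Matn1 by -0.74 (95% interval -2.57 to 1.09) and Acan by -0.63 (95% interval -3.01 to 1.75). The smallest p was that of Sox9, with a difference of -0.55 (95% interval -1.26 to 0.16; limma adjusted p = 0.267). Among positive differences, the smallest p was that of Cytl1, at 0.14 (95% interval -1.13 to 1.41). No gene of the 10 had groups that did not overlap, against 29.7% of all genes (17.3% higher and 12.4% lower).

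The 2 GGsTop libraries low in cartilage genes were singled out by the level of Acan, so a higher GGsTop level without them follows from the choice and is given as a description. From the 2 GGsTop libraries that were left, 9 of the 10 differences were positive, Hapln1 at 0.00, and the median was 0.81, with Acan at 1.20, Comp at 1.15, Cytl1 at 1.08 and Chad at 1.02. None of the 10 passed the limma test in that setting either (lowest adjusted p = 0.156). With array weights, which give less weight to libraries that vary more, 3 genes passed, Sox9 at -0.73 (limma adjusted p = 0.0201), Hapln1 at -1.06 (0.0211) and Ucma at -2.14 (0.0459). With each library left out in turn, 0 of the 10 passed in this comparison.

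OVA/LPS/GGsTop was compared with PBS to ask how far treated airways stood from airways without disease. Again 0 of the 10 genes passed limma, where 2.88% of all genes did (0.821% lower and 2.06% higher), and 0 had an unadjusted p under 0.05 or were called by voom. With the replicate numbers 1 to 3 as a block, 62 genes of all those tested passed in place of 403, and 0 of the 10. The block fit used PBS 1 to 3 and OVA/LPS/GGsTop 1 to 3 only. It thus differed from the main fit in its libraries as well as in the block, and the part of each in the lower count was not tested. The median difference of the 10 genes was -0.37, against 0.01 over all genes tested. Chad had the smallest p, with a difference of 0.75 (95% interval -0.78 to 2.27; limma adjusted p = 0.562). Among negative differences the smallest p was that of Matn1, at -0.67 (95% interval -2.65 to 1.31). No gene of the 10 had groups that did not overlap, against 14.8% of all genes (7.22% higher and 7.54% lower). Without the 3 low libraries the median difference was 0.09. The 3 comparisons share libraries, and their values are not independent of each other.

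**Figure D3:**
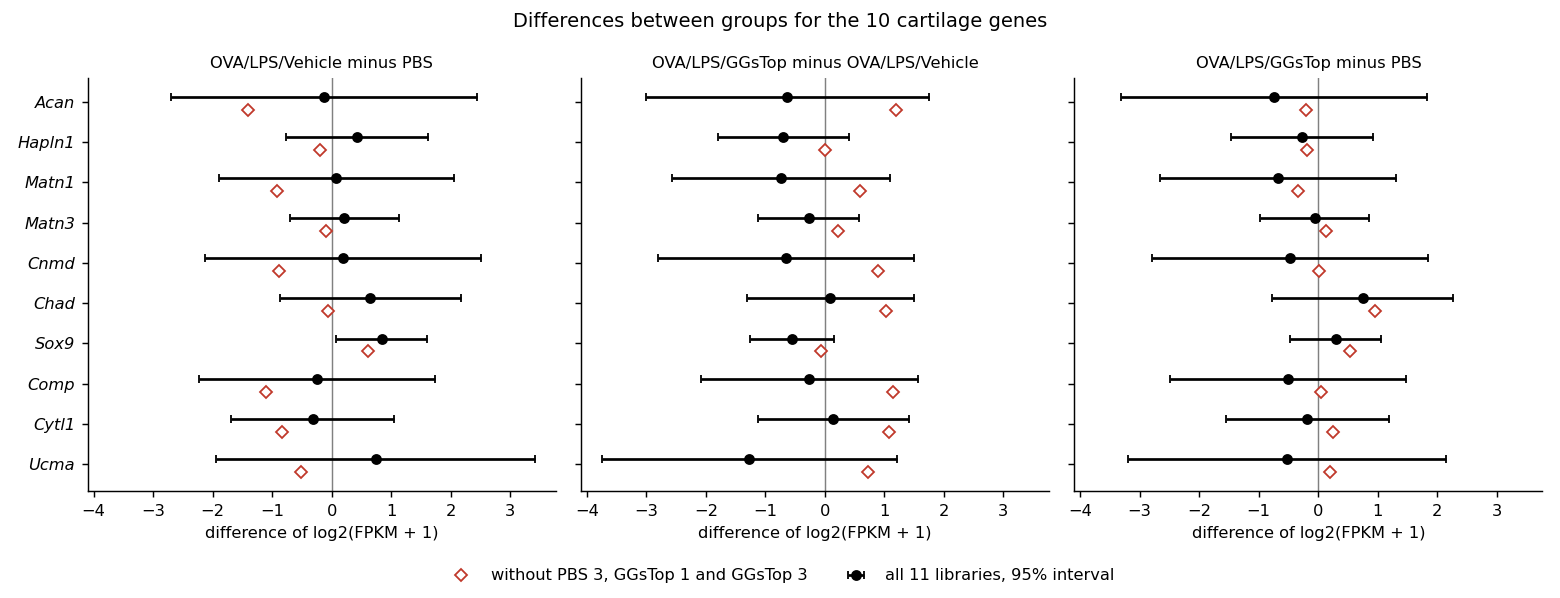
Differences of log2(FPKM + 1) between groups for each of the 10 genes, on the horizontal axis, in the 3 comparisons. Filled points are the limma estimates from all 11 libraries with 95% intervals, and open diamonds the estimates without PBS 3, GGsTop 1 and GGsTop 3. The interval of Sox9 in OVA/LPS/Vehicle minus PBS, 0.08 to 1.61, is the 1 interval of 30 that does not hold 0, and most diamonds lie to the left of 0 in that panel and to the right in the next.

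Of the 10 genes most like the cartilage genes across libraries, 4 belonged to the lists of cartilage collagens and other cartilage matrix. Likeness was the Pearson correlation of log2(FPKM + 1) with the mean z-score of the 10 genes over the 11 libraries, and again over the 8 libraries without the low 3. Libraries of the same group share a treatment, and the correlations describe these libraries only. The 10 genes with the highest values were Col9a2 (r = 0.99, and 0.98 over 8 libraries), Meltf (0.98 and 0.97), Col11a1 (0.98 and 0.99), Pla2g5 (0.97 and 0.91), Slc6a12 (0.97 and 0.92), Omd (0.97 and 0.93), Ppa1 (0.97 and 0.91), Snorc (0.97 and 0.92), Prg4 (0.97 and 0.92) and Myoc (0.97 and 0.88). Meltf encodes melanotransferrin, a membrane glycoprotein that chondrocytes carry, and Omd osteomodulin, a small leucine-rich proteoglycan. Of 13975 genes that were no members, 38 lay above 0.9, and the median was 0.03. Among the 10 members, each set against the mean of the other 9, Cnmd had the highest correlation (0.99, and 0.97 over 8 libraries). The lowest were Chad (0.86 and 0.85) and Sox9, whose 0.76 fell to 0.35 over 8 libraries.

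**Figure D4:**
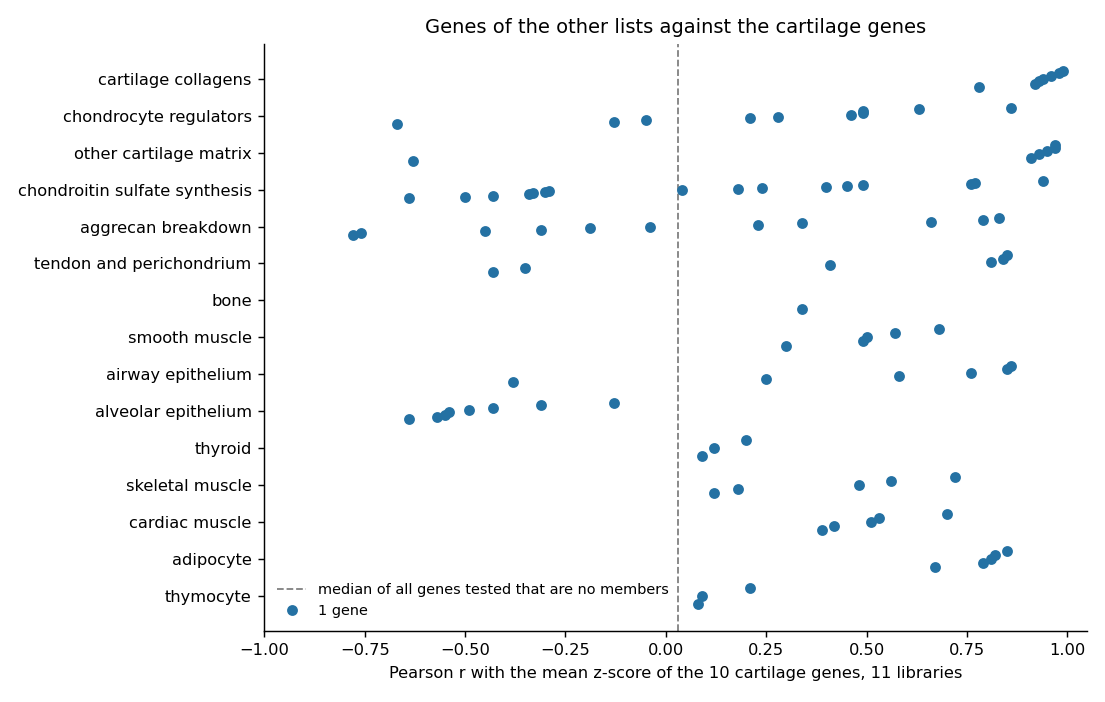
Pearson correlation of each gene of 15 other lists with the mean z-score of the 10 cartilage genes over the 11 libraries, on the horizontal axis, by list on the vertical axis. A point is 1 gene, and the dashed line is the median of all genes tested that were no members, 0.03. Collagens of cartilage and other cartilage matrix genes crowd near 1, with Matn4 at -0.63 as the exception among the latter.

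The collagens of cartilage went with the 10 genes. Of 8 collagen genes 7 passed the filter, with correlations of 0.78 to 0.99, and 0.87 to 0.99 over 8 libraries, and 0 of the 7 passed the limma test in any of the 3 comparisons, at an unadjusted p under 0.05 either. Col10a1 encodes type X collagen, the collagen of hypertrophic chondrocytes. It had 38.2, 79.7 and 0.0171 FPKM in PBS, 29.2, 41.1, 15.4 and 26.0 FPKM with vehicle, and 0.0212, 16.4, 0 and 64.3 FPKM with GGsTop. Its level was above that of Acan in each library that held Acan. Its exons share 18 bases with Nt5dc1, whose reads cannot be told apart from its own over that stretch. Col2a1, the main fibrillar collagen of cartilage, stood at 3.71, 9.38 and 0 FPKM in PBS, 1.93, 2.63, 0.373 and 1.66 FPKM with vehicle, and 0.0144, 1.85, 0.0206 and 7.05 FPKM with GGsTop. Col11a2 kept 1.07 to 1.33 FPKM in the 3 low libraries. As sums, the collagens reached 4.95 to 6.66 FPKM in those 3 and 24.2 to 126 FPKM in the other 8.

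Other matrix genes of cartilage behaved likewise, with Matn4 apart. Of 9 such genes 6 passed the filter, and 5 of the 6 had correlations above 0.9, 3 of the 6 over 8 libraries. Matn4, matrilin-4, which is also made outside cartilage, had a correlation of -0.63, and -0.09 over 8 libraries. It fell in OVA/LPS/Vehicle against PBS by 1.02 ± 0.25 on the log2 scale (SE; limma adjusted p = 0.0119), from 14.4, 11.96 and 24.0 FPKM in PBS to 6.94, 7.80, 6.84 and 8.11 FPKM. It was the 1 gene of this list that passed in any comparison, and its level was highest in PBS 3, where Acan was at 0.

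Chondrocyte regulators did not share the pattern. Of 12 genes 10 passed the filter, with correlations from -0.67 to 0.86, and -0.42 to 0.78 over 8 libraries. The highest over 11 libraries was that of Sox6, a partner of SOX9. In OVA/LPS/Vehicle against PBS 2 fell and 2 rose, which is near the 22.1% and 15.9% over all genes and no result about the list. Fgfr3, a receptor that restrains chondrocyte growth and is also present in lung, fell by 0.65 ± 0.22 on the log2 scale (limma adjusted p = 0.0361), and Wwp2, a ubiquitin ligase, by 0.56 ± 0.13 (adjusted p = 0.0108). Bmpr1b, a receptor of bone morphogenetic proteins, rose by 0.70 ± 0.16 (limma adjusted p = 0.00979) and Trps1, a zinc finger repressor, by 0.41 ± 0.14 (adjusted p = 0.0420). Fgfr3 was higher in OVA/LPS/GGsTop than in OVA/LPS/Vehicle by 0.77 ± 0.20 (limma adjusted p = 0.0411). Its highest levels, 45.5, 44.8 and 45.0 FPKM, were those of PBS 3 and OVA/LPS/GGsTop 1 and 3. Against PBS, 0 regulators passed with GGsTop (2 at an unadjusted p under 0.05). Those 2 are no result about the list, as the share of all genes under that unadjusted p is not given.

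Of 18 genes that make chondroitin sulfate 16 passed the filter, and 5 fell in OVA/LPS/Vehicle against PBS while 0 rose, where 22.1% of all genes fell and 15.9% rose. The median difference of the 16 was -0.18, against -0.01 over all genes, and 6 of them were positive, so nothing is read from the count about the list. Chst3, which sulfates chondroitin at carbon 6, fell by 1.20 ± 0.21 on the log2 scale (limma adjusted p = 0.00413), and Chst12 by 0.80 ± 0.13 (adjusted p = 0.00389). Chpf, Xylt2 and B3gat3 fell by 0.70, 0.50 and 0.48. Chst3 was lower with GGsTop than in PBS too, by 1.26 ± 0.21 (limma adjusted p = 0.0160), and 0 of the 16 passed between GGsTop and vehicle (6 at an unadjusted p under 0.05). The share of all genes under that unadjusted p is not given, so nothing is read from the 6 about the list. Most of these enzymes are made by many cell types, and the median correlation of the list with the cartilage genes was 0.11, and 0.24 over 8 libraries. Xylt1, which starts the chain, was the 1 gene of the list above 0.9.

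Of 12 genes that break down aggrecan or hyaluronan or hold such enzymes back, 11 passed the filter. In OVA/LPS/Vehicle against PBS 4 fell and 1 rose, where 38.0% of all genes passed in either direction, so the count says nothing particular to the list. Hyal2, Adamts1, Adamts15 and Mmp3 fell by 0.80, 0.63, 0.54 and 1.10 on the log2 scale, and Ctsk, cathepsin K, rose by 1.31 ± 0.32 (limma adjusted p = 0.0113). Adamts5, the main aggrecanase of mouse cartilage, had 2.56 to 4.27 FPKM in PBS and 3.06 to 4.31 FPKM with vehicle and was not called. With GGsTop 0 of the 11 passed against vehicle and against PBS (3 and 2 at an unadjusted p under 0.05). Nothing is read from the 3 and 2 about the list, as the share of all genes under that unadjusted p is not given.

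Markers of other tissues that a dissection could hold were set beside the 10 genes. Bone markers were at or near 0, with a summed level of 0.505 to 1.64 FPKM over 7 genes and Mepe and Bglap2 at 0 in 11 and 10 libraries. Adipocyte markers moved with the 3 low libraries. The 5 markers summed to 9.28 to 15.5 FPKM in PBS 3 and OVA/LPS/GGsTop 1 and 3 and to 85.2 to 511 FPKM in the other 8, and their correlations with the cartilage genes ran from 0.67 to 0.85 over 11 libraries and from -0.63 to 0.61 over 8. Krt5, a keratin of basal cells of the large airway, had 0.0977, 2.30 and 0.0289 FPKM in those 3 and 0.816 to 33.1 FPKM in the other 8. Trp63, of the same airway epithelium list, had 0.0768, 0.206 and 0.0378 FPKM in those 3 and 0.0554 to 1.61 FPKM in the other 8. For both genes the ranges overlapped. The part of these cells in the low cartilage levels was not tested. The 6 airway epithelium markers summed to 38251 to 47889 FPKM in the 3 and 30579 to 53452 FPKM in the other 8. Scgb1a1 made up most of this sum, with 37867 to 47126 FPKM in the 3. The correlations of the 6 markers with the cartilage genes ran from -0.38 for Scgb1a1 to 0.86 for Krt5 over 11 libraries. Over 8 libraries they ran from -0.26 to 0.59. Alveolar markers summed to 7884 to 16850 FPKM in the 3 and 4863 to 11807 FPKM in the other 8. Smooth muscle markers summed to 469 to 649 FPKM and 479 to 1148 FPKM. Heart muscle markers summed to 45.3 to 604 FPKM and 6.14 to 1732 FPKM. The ranges of these sums overlapped, unlike those of the adipocyte list. Among the 8 other libraries the smooth muscle markers moved with the cartilage genes, with correlations of 0.74 to 0.88 for the 5 genes that passed the filter, against 0.30 to 0.68 over 11 libraries, and their part in the cartilage levels was not tested.

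Tendon and perichondrium genes were divided. Of 8 genes 6 passed the filter, with a median correlation of 0.61, and 0.31 over 8 libraries. Cilp (0.85, and 0.82 over 8 libraries) and Fmod (0.81 and 0.82) were high in the libraries rich in cartilage genes, whereas Prelp (-0.35 and 0.25) and Scx (-0.43 and -0.04) were not. Thbs4 (0.84 and 0.37) was low in the 3 low libraries. It stood at 2.40 FPKM in vehicle 56, above the 1.91 FPKM in OVA/LPS/GGsTop 4. Prelp, a matrix protein that anchors basement membranes, fell in OVA/LPS/Vehicle against PBS by 1.43 ± 0.17 on the log2 scale (limma adjusted p = 0.00323) and was higher with GGsTop than with vehicle by 0.75 ± 0.16 (adjusted p = 0.0224). Scx, a transcription factor of tendon cells, fell by 1.05 ± 0.19 with vehicle and was lower with GGsTop than in PBS by 0.90 ± 0.19 (limma adjusted p = 0.00460 and 0.0353). Thyroid markers were high in vehicle 12, 34 and 56, where Tg reached 90.6 to 303 FPKM, skeletal muscle markers summed to 11.1 to 33.4 FPKM in the 3 low libraries and 6.48 to 133 FPKM in the others, and thymocyte markers stood out in vehicle 12 at 44.8 FPKM. Every vehicle library, with or without these markers, lay within the range of the GGsTop libraries for each of the 10 cartilage genes. That range was wide, for Acan from 0 to 23.04 FPKM, so lying within it does not separate libraries with and without these markers. The part of these tissues in the cartilage levels was not tested.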

How the data were processed

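RNA-seq of poly-A selected RNA was deposited by the authors as FPKM, 1 column per library, with no scaling between libraries beyond the library total. The submitters' processing notes name cutadapt 1.15, HISAT2 2.0.5, HTSeq 0.9.1 and mm39. GENCODE M21 (GRCm38) gave symbols, positions and exon lengths for the Ensembl identifiers, and positions are given on that build since the file holds none. FPKM times exon length was a whole number of fragments, within 0.05 fragment, in all libraries for 97.8% of genes (21427 of 21899), which gave the depths.

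Libraries were grouped by their labels. After a filter that asked for a mean of 0.5 FPKM or more, 14004 genes entered limma 3.58.1 (R 4.3.3) as log2(FPKM + 1), in 1 fit with a trend of the variance on the mean. Tests were two-sided with Benjamini-Hochberg adjustment over these genes, and calls were made at 0.05. Correlations, sums and motif searches were made in Python 3.11.15. In simulated data with 200 changed genes of 13682, set up as GGsTop against vehicle, 129 changes of 1 and 182 of 2 on the log2 scale were recovered, with 6 and 9 false calls. The simulated SD within groups was capped at 0.5 on the log2 scale. Each of the 10 cartilage genes had a larger SD, the smallest being 0.53 for Sox9, so these recoveries do not apply to them.

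The members and lists were chosen with earlier results of these data known. Named were all members, the 10 most alike genes and each gene called in the cartilage and tendon lists. A rule to name the 3 genes with the smallest p and each gene called in every other list was not followed throughout. In OVA/LPS/Vehicle against PBS, Foxj1, Scgb3a2, Acta1 and Tnnt2 were called higher, and Sftpb, Ager, Slc34a2 and Actg2 lower. These markers of other tissues are not named above. Further genes of the lists (Col2a1, Col10a1, Col11a2, Col9a1, Sox6, Xylt1, Adamts5, Cilp, Thbs4, Fmod, Mepe, Bglap2, Krt5 and Scgb1a1) were named after their values were seen. Numbers 1 to 3 are shared by PBS and OVA/LPS/GGsTop, and the deviations of same-numbered libraries from their group means correlated at 0.367, 0.427 and 0.428, so a block was fitted as an alternative. The block fit used PBS 1 to 3 and OVA/LPS/GGsTop 1 to 3 only, without OVA/LPS/GGsTop 4 and the vehicle libraries. PBS 1 correlated more with OVA/LPS/GGsTop 3 (0.457) than with its own number, and PBS 3 with OVA/LPS/GGsTop 1 at 0.223, so the pairing is a hint from the data and is not in the labels. The other alternatives were the pseudocount, the filter, scaling, the trend, fits of 2 groups, array weights, a correction for GC content, voom on recovered fragments, which called 5373, 1182 and 317 genes in the 3 comparisons in the order of the report, and leaving out libraries.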

Additional observations from a re-analysis of the deposited data

How the results depend on the processing

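Leaving out PBS 3 and OVA/LPS/GGsTop 1 and 3 turned the sign of 18 of the 30 differences of the 10 genes over the 3 comparisons. This alternative and the block with a GC correction were chosen after the data were seen. Of 567 alternative values of these differences, 491 kept their sign and side of the threshold, 69 turned in sign and 7 passed. None of the 30 differences was called, and all but that of Sox9 in vehicle against PBS had intervals that held 0. The 2 rescalings turned no sign of the 10 genes. The cause of the changes below was not tested.

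The number of the 10 genes called moved from 0 to 1 (Sox9) for vehicle against PBS in the fit of 2 groups, with array weights and with voom, and to 0 to 1 when libraries were left out in turn. It moved from 0 to 3 with array weights for GGsTop against vehicle, stayed at 0 to 0 with libraries left out in turn in both comparisons with GGsTop, and the replicate block changed no call of the 10 genes. Without Cytl1 the mean summed level was 88.9 FPKM in PBS, 90.9 FPKM with vehicle and 117 FPKM with GGsTop, so vehicle was no longer below PBS, by differences smaller than the SD. Of the 10 genes most like the members, 9 were kept with a pseudocount of 0.1.

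Over all genes, vehicle against PBS gave 5327 calls, 2910 with the GC correction, 3276 with the 3 low libraries left out, and 3064 to 6440 with each library left out, the lowest without PBS 3. GGsTop against vehicle gave 1220 calls, 698 with the same median, 3525 in the fit of 2 groups, 5214 with array weights and 56 with the GC correction. With each library left out it gave 24 to 1052, namely 739, 62, 35 and 235 without vehicle 12, 34, 56 and 78, and 24, 361 and 103 without GGsTop 1, 2 and 3. GGsTop against PBS gave 403 calls, 208 with no filter, 39 in the fit of 2 groups, 2557 with array weights, 62 with the replicate block and 112 with the 3 low libraries left out. With each library left out it gave 29 to 1597, namely 29, 1597 and 56 without PBS 1, 2 and 3, and 36, 143, 777 and 200 without GGsTop 1 to 4. The block with the GC correction gave 138 lower and 260 higher. With 1 library left out, the 10 genes stayed uncalled in every fit but that without PBS 2.

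Turned log2 differences of the 10 genes were as follows. With a pseudocount of 0.1 the signs turned of Acan 0.77 for vehicle against PBS. With the GC correction the signs turned of Acan 0.11, Hapln1 -0.10, Matn3 -0.04 and Comp 0.12 for vehicle against PBS, and of Chad -0.16 for GGsTop against vehicle. With voom the signs turned of Acan 2.72 and Comp 0.10 for vehicle against PBS, and of Hapln1 0.33, Matn3 0.06 and Cnmd 0.13 for GGsTop against PBS. With the 3 low libraries left out the signs turned of Hapln1 -0.19, Matn1 -0.92, Matn3 -0.09, Cnmd -0.88, Chad -0.06 and Ucma -0.52 for vehicle against PBS, and of Acan 1.20, Hapln1 0.00, Matn1 0.59, Matn3 0.22, Cnmd 0.90, Comp 1.15 and Ucma 0.72 for GGsTop against vehicle, and of Matn3 0.13, Cnmd 0.02, Comp 0.04, Cytl1 0.25 and Ucma 0.20 for GGsTop against PBS. With array weights the signs turned of Matn1 -0.40 for vehicle against PBS, and of Chad -0.29 and Cytl1 -0.41 for GGsTop against vehicle. With the replicate block, which also leaves out GGsTop 4, the signs turned of Sox9 -0.02 for GGsTop against PBS. The lowest value of Sox9 with 1 library left out and no block was -0.02 too, so the turn is not particular to the block. With the block and GC correction the signs turned of Sox9 -0.06 for GGsTop against PBS. With each library left out in turn, the differences that turned ran for vehicle against PBS, Acan from -1.41 to 0.80, Hapln1 from -0.19 to 0.94, Matn1 from -0.92 to 0.81, Matn3 from -0.09 to 0.69, Cnmd from -0.88 to 1.22, Chad from -0.06 to 1.26, Comp from -1.11 to 0.59, Cytl1 from -0.83 to 0.23 and Ucma from -0.52 to 1.71. They ran for GGsTop against vehicle, Chad from -0.43 to 0.62, Comp from -1.0 to 0.22 and Cytl1 from -0.44 to 0.49. They ran for GGsTop against PBS, Acan from -2.03 to 0.18, Hapln1 from -0.89 to 0.24, Matn1 from -1.66 to 0.06, Matn3 from -0.41 to 0.42, Cnmd from -1.54 to 0.56, Sox9 from -0.02 to 0.64, Comp from -1.37 to 0.33, Cytl1 from -0.76 to 0.37 and Ucma from -1.78 to 0.44.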
